A study of Mus musculus with 6 samples.

Results

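The mitochondrial ribosomal protein genes encode the proteins of the ribosome that works inside mitochondria. They were taken as the protein-coding genes whose mouse symbol starts with Mrpl or Mrps followed by a number. This gave 78 genes of the 40808 gene IDs in the count table, 49 of the large subunit (Mrpl) and 29 of the small subunit (Mrps). The rule used the symbols only and no measured value. The mitochondrial ribosome translates the few mRNAs of the mitochondrial genome, which encode membrane subunits of the respiratory chain and of ATP synthase. All its proteins are encoded in the nucleus, made in the cytosol and imported, and they assemble on 2 rRNAs that are transcribed from mitochondrial DNA. Some descend from bacterial ribosomal proteins, and others were added during the evolution of mitochondria.

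The RNA came, per the labels, from leukaemia cells in the spleen of mice that had received transplanted bone marrow. There were 3 libraries labelled NO_DOX (treatment "no", replicates 4, 5 and 6) and 3 labelled as treated with Dox (replicates 10, 11 and 12). The labels leave Dox unexplained and give no dose, duration, allele, strain, age, sex or lineage of the leukaemia, and nothing says whether the libraries came from separate mice, so p-values measure only the spread between these libraries. The title of the series names UVRAG, ITCH, the ESCRT machinery and NOTCH. Each library holds reads from mRNA 3′ ends, with 1 fragment expected per transcript, so levels are given as CPM (a library's counts rescaled to a fixed total, with a correction for composition) and were not divided by transcript length.

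Total counts per library ran from 5541486 to 8725767, and a floor of 3 counts stood for 0.309 to 0.608 CPM, which covers counting error only. The libraries also differed in cell markers and in sex-linked RNA. Summed CPM of 12 T cell markers was 1826 to 1931 without Dox and 143 to 172.6 with Dox, with 11 of 12 lower and with Ptcra and Dntt at 0 counts in 2 Dox libraries. Summed CPM of 10 B cell markers was 140.6 to 162.7 without Dox and 2224 to 2442 with Dox, with 10 of 10 higher. Summed CPM of 10 myeloid markers was 198.6 to 201 and 2303 to 2342, with 7 higher and 1 lower, and Ly6g was at 0 counts in at least 2 libraries without Dox. Summed CPM of 10 erythroid markers was 94190 to 104300 and 133200 to 143200, with 4 higher and 2 lower. Summed CPM of 7 endothelial and stromal markers was 186 to 208.6 and 267 to 336.8, with 2 higher and 2 lower. Summed CPM of 10 genes of cycling cells was 4032 to 4339 and 2756 to 3260, with 7 of 10 lower. Counts summed over 4 Y-linked genes (Ddx3y, Eif2s3y, Kdm5d, Uty) were 801, 545 and 650 in the libraries without Dox and 0 in each Dox library, while Xist had 324, 225 and 193 counts against 3347, 4775 and 5669. Dox and the sex of the cells therefore cannot be told apart. These marker values moved with Dox alongside every comparison below, and their part in the results was not tested.

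Most mitochondrial ribosomal protein genes fell with Dox. Of the 78 genes, all of which passed the filter on low counts, 58 (74.4%) were lower with Dox at an adjusted p under 0.05, 0 were higher and 20 did not pass the test (edgeR quasi-likelihood test, Benjamini-Hochberg over 14110 genes). Over all tested genes 45.6% passed the same test, 22.1% as lower and 23.6% as higher. Of the 78 genes, 72 were at or above the median level of all tested genes, and the part of level in these shares was not tested. At an unadjusted p under 0.05 the number of higher members was also 0 in edgeR, DESeq2 and limma-voom. Under other settings at most 1 was higher, Mrpl14 with a trend on transcript length removed and Mrpl10 without replicate 12. The median log2 fold change of the 78 genes was -1.39 (2.62-fold lower) beside 0.07 over all tested genes. In these bulk libraries fewer cells of a type and less RNA per cell cannot be told apart. The log2 fold change was negative in 73 of 78 genes, below -1 in 56, below -2 in 22 and below -3 in 4.

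The fall was seen in every Dox library. Together the 78 genes took 0.456%, 0.459% and 0.459% of all counts in the libraries without Dox and 0.221%, 0.210% and 0.205% in those with Dox. The means were 0.458% ± 0.0018 and 0.212% ± 0.0085 (SD, n = 3 each), so the groups did not overlap. Over the 78 genes the median CPM stood at 56.1, 53.3 and 51.4 without Dox and at 18.7, 18.3 and 17.6 with Dox. For 65 of the 78 genes every Dox library lay below every library without Dox, which held for 29.6% of all tested genes. For the other 13 the groups overlapped, and for 0 genes did the Dox libraries lie above, against 30% of all tested genes (59.6% in either direction). All 58 genes that passed the test were among the 65.

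Most genes of both subunits were lower, beside 22.1% of all tested genes. In the large subunit 36 of 49 genes (73.5%) were lower, with a median log2 fold change of -1.38, quartiles of -2.22 and -1.03 and a range from -4.05 to 0.62. In the small subunit 22 of 29 (75.9%) were lower, with a median of -1.40, quartiles of -1.86 and -0.92 and a range from -3.69 to -0.30. Summed large subunit CPM exceeded summed small subunit CPM 1.90, 1.82 and 1.72 times in the libraries without Dox and 2.06, 1.81 and 2.01 times in the Dox libraries, and these ranges overlapped. Mrps18a and Mrps30 carry small subunit symbols but are known to sit in the large subunit. The difference between the subunits was not tested. Without replicate 11 the medians were -1.23 (large) and -1.59 (small). With Mrps18a and Mrps30 counted in the large subunit, 37 of 51 large and 21 of 27 small subunit genes were lower, and the medians stayed at -1.38 and -1.40.

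**Figure D1:**
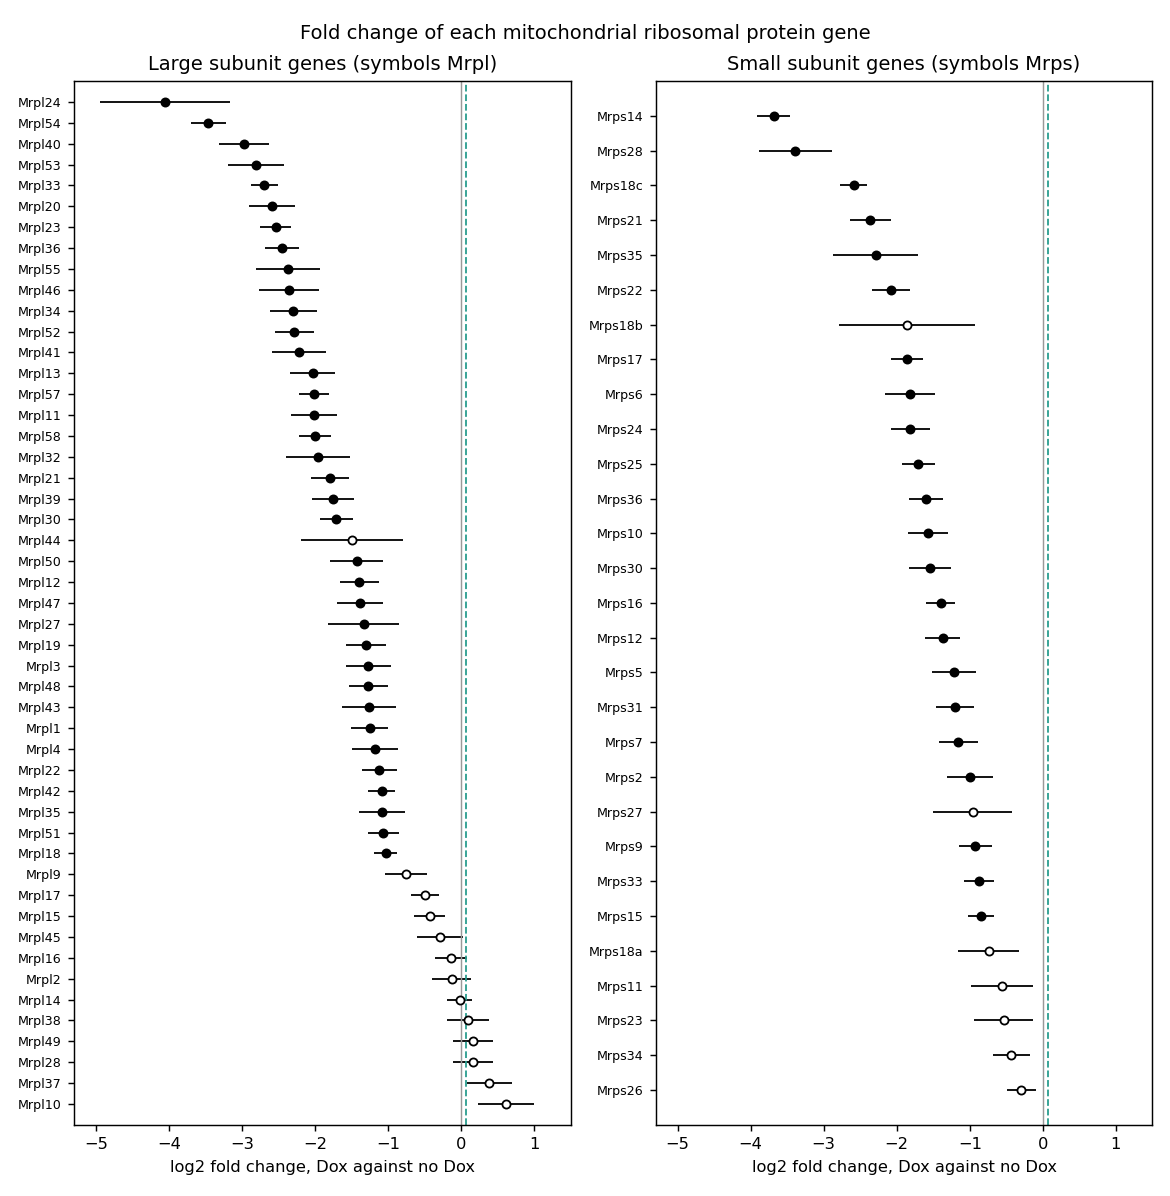
Log2 fold change with Dox of each gene (points; bars are the standard error), large subunit left and small subunit right; filled points passed an adjusted p of 0.05, open points did not, and the dashed line is the median of all tested genes. Filled points are all left of 0 (36 large, 22 small), and the 5 points right of 0, all open, belong to the large subunit.

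**Figure D2:**
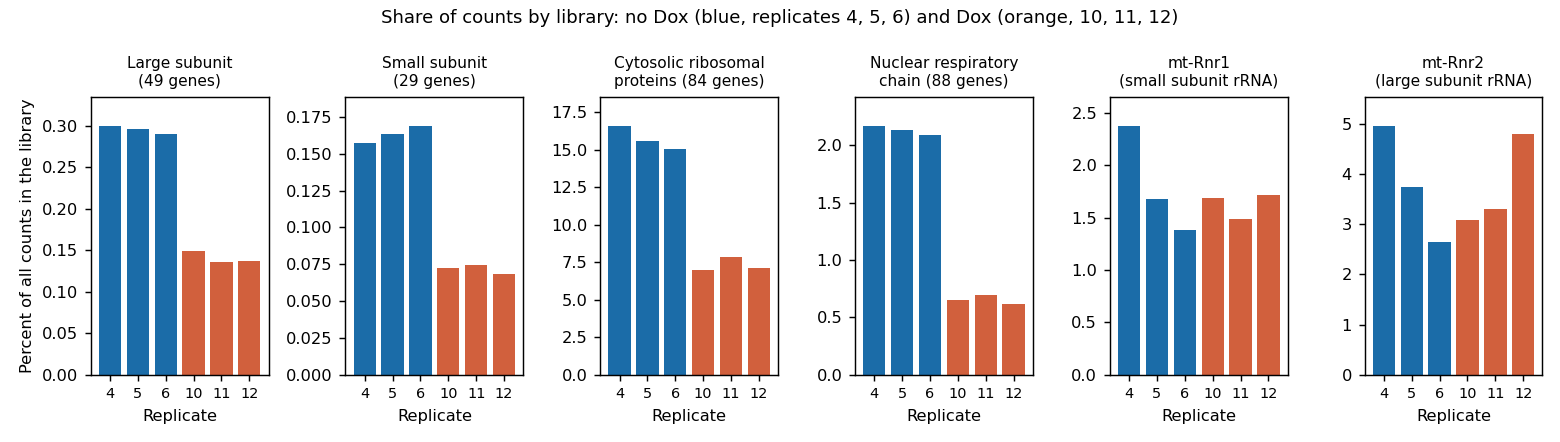
Percent of all counts in each library (bars, 1 per library) for the large and small subunit genes, the cytosolic ribosomal protein genes, the nuclear genes of the respiratory chain and the 2 mitochondrial rRNAs. The 3 Dox bars lie below the 3 bars without Dox in the first 4 panels and overlap them in the rRNA panels.

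Promoters are printed here for 3 genes with a strong fall, and further below for a pair of neighbours whose windows overlap. RefSeq gave a window from 250 bases before to 50 bases after the start, on GRCm38.p6, for 69 of the 78 genes. Mrpl33 and Mrps21 were among the most abundant genes of their subunit, and Mrps18c had Dox libraries that lay close together. Windows run 5′ to 3′ on the strand of the gene, and capitals mark matches to the motifs listed after them.
Mrpl33, chr5:31613701-31614000, plus strand: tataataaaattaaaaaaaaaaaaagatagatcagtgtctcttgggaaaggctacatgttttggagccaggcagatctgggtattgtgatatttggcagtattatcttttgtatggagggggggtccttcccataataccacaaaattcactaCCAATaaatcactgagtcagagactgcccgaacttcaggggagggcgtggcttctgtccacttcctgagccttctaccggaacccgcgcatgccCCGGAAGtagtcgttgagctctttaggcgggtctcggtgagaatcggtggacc
Mrps18c, chr5:100798509-100798808, plus strand: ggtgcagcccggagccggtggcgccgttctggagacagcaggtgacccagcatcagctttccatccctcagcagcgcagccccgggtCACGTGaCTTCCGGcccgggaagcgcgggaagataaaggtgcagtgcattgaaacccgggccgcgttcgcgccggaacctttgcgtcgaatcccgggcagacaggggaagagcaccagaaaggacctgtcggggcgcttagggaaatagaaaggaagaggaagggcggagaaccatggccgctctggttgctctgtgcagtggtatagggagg
Mrps21, chr3:95871465-95871764, minus strand: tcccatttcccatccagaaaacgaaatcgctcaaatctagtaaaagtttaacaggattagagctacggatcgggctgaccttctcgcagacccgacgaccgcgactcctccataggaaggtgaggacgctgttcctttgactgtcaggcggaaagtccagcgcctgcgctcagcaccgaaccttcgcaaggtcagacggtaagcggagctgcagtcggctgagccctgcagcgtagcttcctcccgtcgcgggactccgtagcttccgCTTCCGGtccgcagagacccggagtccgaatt
In the Mrpl33 window the capitals are CCAAT and the ETS core CCGGAAG, in that of Mrps18c the E-box CACGTG and the ETS core on the other strand (CTTCCGG), and in that of Mrps21 the ETS core on the other strand. These 3 windows do not stand for all lowered genes. Those of Mrps14 (log2 fold change -3.69) and Mrpl40 (-2.97), which fell further, held no match to any of the motifs.

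A match to such letters is a description of the window and shows no binding. The ETS core CCGGAAG, the letters that GABP and other ETS factors bind, was found on either strand in 26 of the 69 genes (37.7%), beside 19.1% of tested genes and 8.86% of all 32851 windows. It was present in 20 of the 52 lowered genes with a window and in 6 of the 17 others. The NRF1 core CGCATGCG was found in 7 genes (10.1%, beside 4.0% of tested genes and 1.87% of all windows). The YY1 core AAGATGGCG was found in 8 genes (11.6%, beside 3.4% and 1.40%). The E-box CACGTG, which MYC with MAX binds, was found in 5 genes (7.2%, beside 11.3% and 7.15%). CCAAT was found in 27 genes (39.1%, beside 43.1% and 37.4%) and TATAAA in 5 (7.2%, beside 9.9% and 13.6%). Of the 52 lowered genes and the 17 others, 3 and 4 held the NRF1 core and 4 and 4 the YY1 core. The E-box was in 3 and 2, CCAAT in 22 and 5, and TATAAA in 4 and 1. These splits were not tested. No motif contains another. The median GC content was 58.7% in the windows of these genes and 59.7% in those of tested genes.

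Among the large subunit genes, the strongest falls, leaving aside genes under the median level, were those of Mrpl54, Mrpl40, Mrpl53, Mrpl33 and Mrpl20. Mrpl54, a protein without a bacterial counterpart, was at 93.3, 104.6 and 103.2 CPM without Dox and 11.02, 6.69 and 9.75 CPM with Dox, a log2 fold change of -3.46 ± 0.24 (SE; adjusted p = 4.86e-06). The highest Dox library lay far below the lowest library without Dox. Mrpl40, likewise specific to mitochondria, was at 58.9, 51.3 and 54.6 CPM without Dox and 4.08, 6.28 and 10.7 CPM with Dox (-2.97 ± 0.34). Mrpl53, which lies near the stalk of the subunit, was at 57.8, 73.0 and 86.5 CPM without Dox and 15.5, 10.6 and 4.74 CPM with Dox (-2.81 ± 0.38). Its Dox libraries spread more than 3-fold and were still all below those without Dox.

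Mrpl33, a counterpart of a small bacterial protein of the same number, had one of the most precise falls. It was at 204.3, 191.5 and 165.6 CPM without Dox and 32.4, 24.7 and 29.8 CPM with Dox (-2.69 ± 0.19, adjusted p = 5.07e-06). The gene lies at chr5:31613951-31622644 on GRCm38, and the ETS core in its window, printed above, starts 3 bases before the annotated start. Mrpl20, which in bacteria binds early in the assembly of the subunit, was at 114.8, 120.6 and 99.9 CPM without Dox and 14.8, 12.4 and 28.7 CPM with Dox (-2.59 ± 0.31). Replicate 12 had about 2 times the level of the other Dox libraries.

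The most abundant large subunit genes over the 6 libraries were Mrpl18, Mrpl52 and Mrpl33. Mrpl52 had the highest mean of the 78 genes without Dox. It was at 265.3, 252.3 and 190.7 CPM there and at 30.6, 51.5 and 63.3 CPM with Dox (-2.28 ± 0.27, adjusted p = 0.000105). Mrpl18, a protein of the family that binds 5S rRNA in bacteria, fell least among the large subunit genes that passed the test. It was at 193.8, 210.2 and 185.6 CPM without Dox and 98.8, 88.6 and 101.2 CPM with Dox (-1.03 ± 0.16, adjusted p = 0.000486). In each Dox library Mrpl18 was the most abundant gene of the 78, ahead of Mrpl52.

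Mrpl51, Mrpl35, Mrpl42 and Mrpl22 were the next least lowered, at log2 fold changes of -1.06 ± 0.21, -1.08 ± 0.32, -1.09 ± 0.19 and -1.12 ± 0.24 (SE). In all of them the groups did not overlap. Mrpl42 was nearly constant without Dox at 99.98, 100.3 and 103.6 CPM and was at 54.7, 39.1 and 49.3 CPM with Dox. Mrpl35 (adjusted p = 0.0184) did not pass the test without replicate 4 (-1.13, adjusted p = 0.0515) or replicate 6 (-1.15, 0.0515), fits with fewer libraries in which its fold change was no smaller. It did not pass with library size only either (-0.77, 0.0670). Removing a trend of fold change with transcript length took Mrpl22 from an adjusted p of 0.00396 to 0.0603.

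**Figure D3:**
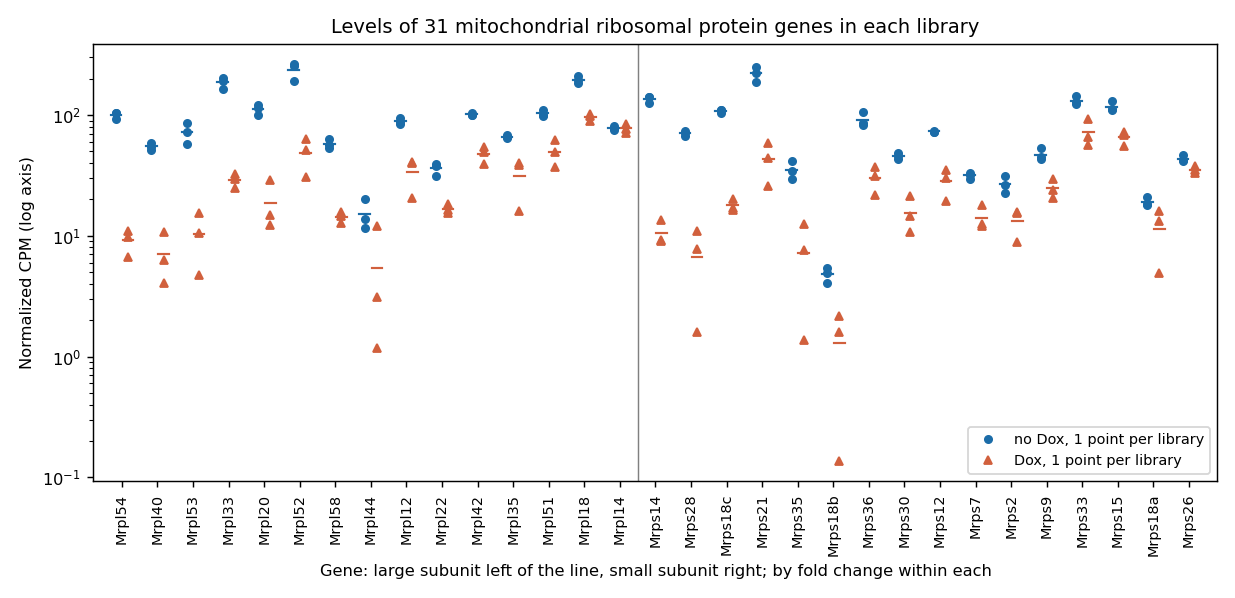
CPM (log axis) of 31 mitochondrial ribosomal protein genes in each library (blue circles no Dox, orange triangles Dox, dashes the group means), large subunit left of the line. Dox triangles are below the circles for most genes, overlap them for Mrpl14 and Mrpl44, and lie close below them for Mrps26.

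Mrpl12 forms the flexible stalk that recruits translation factors to the ribosome, and it is also known to bind mitochondrial RNA polymerase. It was at 84.5, 87.1 and 95.3 CPM without Dox and 20.6, 40.4 and 40.6 CPM with Dox (-1.39 ± 0.26, adjusted p = 0.00192), the same as the median over all 78 genes. Mrpl10, which holds Mrpl12 on the subunit, went the other way in 2 of 3 Dox libraries and did not pass the test. It was at 24.2, 25.7 and 16.1 CPM without Dox and 42.2, 43.1 and 16.0 CPM with Dox (0.62 ± 0.38, adjusted p = 0.215), so that replicate 12 was level with the lowest library without Dox. Without replicate 12 its log2 fold change was 0.94 (adjusted p = 0.0123). Its last 300 bases overlap an exon of Gm11574 on the opposite strand, and without the strand setting of the counts the reads of the 2 genes cannot be told apart. Mrpl10 was picked out after its values were seen.

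Mrpl58, a peptidyl-tRNA hydrolase built into the subunit that frees peptides from stalled ribosomes, was at 63.0, 53.3 and 56.6 CPM without Dox and 12.8, 15.9 and 14.6 CPM with Dox (-1.996 ± 0.22, adjusted p = 6.85e-05). Its Dox libraries were among the most even of the set, with the highest at 1.24 times the lowest. Mrpl44, which has the fold of a double-stranded RNA nuclease, was at 13.7, 11.6 and 20.3 CPM without Dox and 11.98, 3.09 and 1.19 CPM with Dox (-1.50 ± 0.70, adjusted p = 0.108). Replicate 10 lay within the range of the libraries without Dox, and without it the log2 fold change was -2.83 (adjusted p = 0.00488). It also passed with no low-count filter (-1.61, 0.00678) and in limma-voom (-2.09, 0.0212).

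In 13 large subunit genes the difference did not pass the test, from Mrpl44 at -1.50 to Mrpl10 at 0.62. The level nearest to unchanged was that of Mrpl14, a protein at the face that meets the small subunit. It was at 75.4, 81.9 and 78.0 CPM without Dox and 71.3, 84.5 and 76.2 CPM with Dox (-0.02 ± 0.17, adjusted p = 0.934), fully interleaved. Its sign depended on the scaling, at 0.08 with upper-quartile factors and 0.29 with library size only, and with the length trend removed it was higher (0.51, adjusted p = 0.0329). The others between these were Mrpl9, Mrpl17, Mrpl15, Mrpl45, Mrpl16 and Mrpl2 with negative and Mrpl38, Mrpl49, Mrpl28 and Mrpl37 with positive fold changes. For Mrpl9, Mrpl17 and Mrpl15 the groups did not overlap, with Dox below.

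Mrpl24, near the exit of the peptide tunnel, had the lowest fold change of all 78 genes (-4.05 ± 0.89, adjusted p = 0.00442) but also the lowest level with Dox. It was at 4.92, 5.88 and 5.59 CPM without Dox and 0.27, 0.51 and 0.13 CPM with Dox, and those Dox values stand for 2, 5 and 1 counts. It was named after its values were seen, and its last exon overlaps Rrnad1 on the opposite strand. The 3′ ends of Mrpl53 (Gm42688, same strand) and Mrpl49 (Syvn1, opposite strand) also overlap exons of other genes, so their counts are less certain too.

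In the small subunit, Mrps14 and Mrps28 stood below the rest. Mrps14, of the uS14 family of the head of the subunit, had the smallest adjusted p of the 78 genes (2.82e-06). It was at 140.4, 141.5 and 126.3 CPM without Dox and 13.5, 9.06 and 9.23 CPM with Dox (-3.69 ± 0.23). Mrps28 was at 74.0, 71.3 and 66.6 CPM without Dox and 10.9, 7.72 and 1.58 CPM with Dox (-3.39 ± 0.50, adjusted p = 0.000447). The libraries without Dox were close together in both genes, and in Mrps28 replicate 12 was far below the other Dox libraries.

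Mrps18a, Mrps18b and Mrps18c are 3 relatives of the bacterial protein S18 that sit at different sites of the mitochondrial ribosome. Mrps18c was at 110.1, 109.6 and 103.1 CPM without Dox and 16.5, 20.2 and 16.9 CPM with Dox (-2.59 ± 0.19, adjusted p = 6.40e-06), the most even of the 3. Mrps18b was at 5.37, 4.05 and 4.92 CPM without Dox and 0.14, 2.16 and 1.58 CPM with Dox (-1.86 ± 0.93, adjusted p = 0.129). All its Dox libraries were below, with 1 count in replicate 10, but it passed the test under none of the settings tried (smallest adjusted p = 0.0751), and its end overlaps Gm16279 on the opposite strand. Mrps18a was at 18.1, 18.2 and 20.9 CPM without Dox and 16.1, 13.2 and 4.88 CPM with Dox (-0.74 ± 0.42, adjusted p = 0.178), with replicate 12 lowest. Differences among the 3 fold changes were not tested.

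Mrps21 was the most abundant small subunit gene. It was at 189.2, 224.5 and 249.5 CPM without Dox and 58.7, 44.5 and 25.8 CPM with Dox (-2.36 ± 0.28, adjusted p = 0.000114). Mrps35, a protein without a bacterial counterpart, was at 29.6, 34.5 and 41.4 CPM without Dox and 1.36, 7.62 and 12.5 CPM with Dox (-2.29 ± 0.58, adjusted p = 0.00934), with a wide spread among the Dox libraries. Mrps12, at the decoding centre where codon and anticodon are matched, was at 72.8, 74.2 and 72.7 CPM without Dox and 30.1, 35.2 and 19.4 CPM with Dox (-1.37 ± 0.24, adjusted p = 0.00123), close to the median of its subunit.

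Mrps30 and Mrps36, like Mrps18a, carry small subunit names but are known from other places. Mrps30, found in the large subunit, was at 48.1, 45.8 and 43.2 CPM without Dox and 10.8, 21.4 and 14.5 CPM with Dox (-1.55 ± 0.29, adjusted p = 0.00161). Mrps36, now known as a part of the 2-oxoglutarate dehydrogenase complex of the citric acid cycle, was at 106.5, 85.5 and 82.4 CPM without Dox and 21.6, 37.4 and 31.4 CPM with Dox (-1.60 ± 0.24, adjusted p = 0.000450). In both genes every Dox library lay below every library without Dox.

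Of the small subunit genes that passed the test, Mrps15, Mrps33, Mrps9, Mrps2 and Mrps7 were lowered least. Mrps15, which binds the rRNA early in bacterial assembly, was at 109.5, 130.3 and 112.6 CPM without Dox and 68.1, 55.2 and 73.0 CPM with Dox (-0.84 ± 0.18, adjusted p = 0.00395). Mrps33 was at 129.2, 142.7 and 123.2 CPM without Dox and 66.0, 56.9 and 92.8 CPM with Dox (-0.87 ± 0.21). Both were among the 3 most abundant genes of the subunit, and with the length trend removed neither passed the test (-0.41 and -0.37, adjusted p = 0.0915 and 0.176). Mrps9, Mrps2 and Mrps7 had log2 fold changes of -0.92 ± 0.23, -0.999 ± 0.32 and -1.16 ± 0.27, and the 3′ end of Mrps7 overlaps Mif4gd on the opposite strand. The adjusted p of Mrps9 rose from 0.00858 to 0.0512 without replicate 4, and that of Mrps2 from 0.0261 to 0.0668 without replicate 5 and 0.0854 without replicate 6. With library size only both missed the threshold (-0.61, adjusted p = 0.0549, and -0.69, 0.113).

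The 7 small subunit genes that did not pass the test were Mrps18b, Mrps27, Mrps18a, Mrps11, Mrps23, Mrps34 and Mrps26. The smallest change was in Mrps26, at 42.7, 46.2 and 41.4 CPM without Dox and 37.8, 35.2 and 33.1 CPM with Dox (-0.30 ± 0.20, adjusted p = 0.250). Its groups did not overlap. Its sign turned with library size only (0.018, adjusted p = 0.951), and with the length trend removed it passed the test as lower (-0.62, adjusted p = 0.0286).

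**Figure D4:**
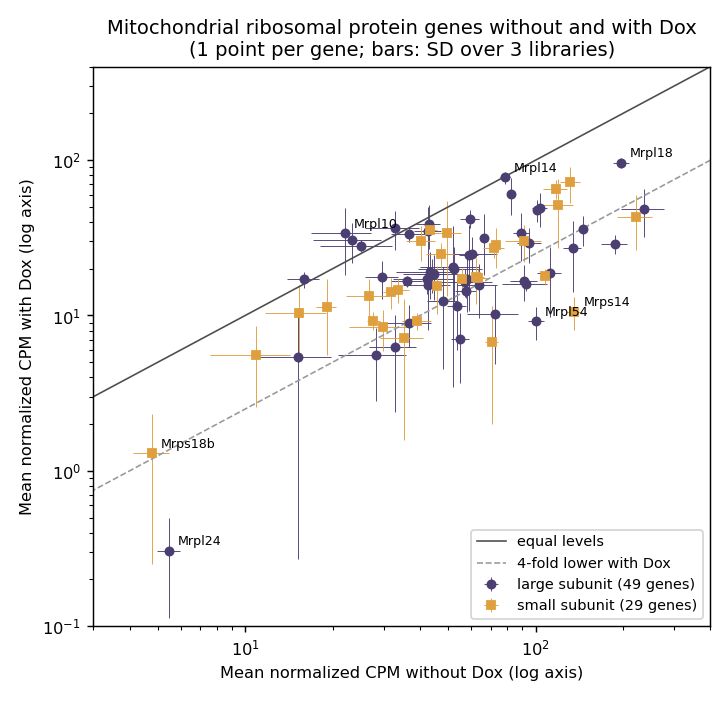
Mean CPM with Dox against mean CPM without Dox (log axes) for the 78 genes, large subunit as circles and small subunit as squares, with bars for the SD over 3 libraries; the solid line marks equal levels and the dashed line levels 4-fold lower with Dox. Most genes lie between or near the 2 lines, Mrpl14 and Mrpl10 lie on or above the solid line, and Mrps14, Mrpl54 and Mrpl24 lie well below the dashed line.

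The order of the genes by level was only partly kept. Across the 78 genes Spearman's rho between mean CPM without and with Dox was 0.52, a description over genes that share the same libraries. Spread between libraries was wider with Dox: the median coefficient of variation of these genes was 10.95% without Dox and 28.8% with Dox. It was 16.7% and 30.9% over the 12464 tested genes at or above the level of the weakest of the 78. Those genes had no upper limit and were not otherwise matched for level. Fold changes were related weakly to transcript length, with a rho of 0.29 over the 78 genes and 0.23 over 11992 tested genes with a length. The median annotated transcript length was 1052 bases for these genes and 2178 for all tested genes.

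Mrpl46 and Mrps11 start 42 bases apart on opposite strands of chromosome 7, and their windows share 141 bases. They are the only pair of these genes with overlapping windows, and their values were looked at because of that after the members' values had been seen. Capitals mark TATAAA in the first window and the YY1 core on the other strand (CGCCATCTT) in the second.
Mrpl46, chr7:78783040-78783339, minus strand: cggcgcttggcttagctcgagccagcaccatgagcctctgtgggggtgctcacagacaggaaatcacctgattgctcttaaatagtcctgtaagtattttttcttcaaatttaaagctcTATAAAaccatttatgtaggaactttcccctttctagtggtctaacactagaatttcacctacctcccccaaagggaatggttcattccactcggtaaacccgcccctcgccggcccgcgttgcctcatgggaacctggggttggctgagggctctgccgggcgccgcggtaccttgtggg
Mrps11, chr7:78782881-78783180, plus strand: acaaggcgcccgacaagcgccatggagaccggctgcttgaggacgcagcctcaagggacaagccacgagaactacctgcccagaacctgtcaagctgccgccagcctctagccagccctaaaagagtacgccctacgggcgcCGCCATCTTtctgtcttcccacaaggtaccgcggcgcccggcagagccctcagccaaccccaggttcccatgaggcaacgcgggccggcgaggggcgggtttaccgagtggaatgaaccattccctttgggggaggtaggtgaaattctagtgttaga
Mrpl46 was at 23.3, 24.7 and 36.8 CPM without Dox and 8.57, 4.73 and 3.30 CPM with Dox (-2.35 ± 0.41, adjusted p = 0.00113), with no overlap. Mrps11 was at 17.2, 11.2 and 17.6 CPM without Dox and 6.67, 16.6 and 7.91 CPM with Dox (-0.56 ± 0.42, adjusted p = 0.311), with replicate 11 inside the range without Dox. Per library, the log2 ratio of Mrpl46 to Mrps11 stood at 0.44, 1.15 and 1.06 without Dox and at 0.36, -1.81 and -1.26 with Dox. The groups did not overlap, although replicate 10 with Dox (0.36) lay next to replicate 4 without Dox (0.44). With 3 against 3 an exact two-sided permutation test cannot give a p under 0.1, so it cannot decide whether the 2 genes differ, and the ratios are given as a description.

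The rRNAs on which these proteins assemble did not show a fall of that size. The small subunit rRNA mt-Rnr1 was at 27380, 18890 and 14880 CPM without Dox and 14910, 13390 and 16030 CPM with Dox (-0.46 ± 0.20, adjusted p = 0.0785). The large subunit rRNA mt-Rnr2 was at 57160, 42070 and 28630 CPM without Dox and 27220, 29680 and 44770 CPM with Dox (-0.33 ± 0.25, adjusted p = 0.306). The groups overlapped for both rRNAs, and the libraries without Dox differed nearly 2-fold among themselves. Libraries primed on poly(A) catch only the adenylated part of these rRNAs. Both were named after their values were seen, and the mRNAs they translate, of the 13 protein genes of mitochondrial DNA, were not analysed here.

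Other proteins of the mitochondrial ribosome, which carry names outside the Mrp series, also fell: 5 of 5 were lower, beside 22.1% of all tested genes. Of these 5, the call for Dap3 depended on the settings. Chchd1 was at 110.9, 98.9 and 106.6 CPM without Dox and 32.5, 21.3 and 20.3 CPM with Dox (-2.10 ± 0.23, adjusted p = 6.25e-05). The log2 fold changes of Aurkaip1, Gadd45gip1 and Ptcd3 were -2.09 ± 0.23, -1.80 ± 0.36 and -1.73 ± 0.25. Dap3, a GTP-binding protein of the small subunit, was at 78.9, 79.4 and 72.9 CPM without Dox and 42.2, 46.9 and 62.6 CPM with Dox (-0.61 ± 0.20, adjusted p = 0.0318). The call for Dap3 was lost without replicate 4, 5, 10 or 11 (adjusted p = 0.0854, 0.0825, 0.0744 and 0.0661). It was also lost with upper-quartile factors (-0.51, 0.0612), library size only (-0.30, 0.229), at least 10 counts in every library (-0.49, 0.0624) and the length trend removed (-0.14, 0.616).

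The lists of genes that assemble, drive or feed the mitochondrial ribosome had shares of lower genes nearer to the background. They also lay at lower levels than the Mrpl and Mrps genes. The median log2 CPM was 3.355 for assembly factors, 3.85 for translation factors and 3.17 for tRNA synthetases, against 5.21 for the 78 genes. A change of a given size passes the test less easily at a low level, and the part of level was not tested. Of 23 tested assembly factors 5 (21.7%) were lower and 1 (4.35%) was higher (median log2 fold change -0.59), beside 22.1% and 23.6% of all tested genes. The log2 fold change was negative in 18 of the 23, beside 6784 of 14110 tested genes. Rpusd4, a pseudouridine synthase that acts on mitochondrial rRNA, was at 12.5, 10.5 and 13.2 CPM without Dox and 3.27, 1.65 and 1.58 CPM with Dox (-2.48 ± 0.51). Eral1, a chaperone of the small subunit rRNA, rose from 16.9, 19.7 and 12.2 CPM to 38.4, 45.0 and 36.1 CPM (1.30 ± 0.26, adjusted p = 0.00285). These groups did not overlap in either gene.

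Of 12 translation factors 3 (25%) were lower and 1 (8.33%) was higher (median -0.56), beside 22.1% and 23.6% of all tested genes, so the share of lower genes was near the background. The elongation factor Tufm, which brings aminoacyl-tRNA to the ribosome, fell from 25.7, 23.1 and 17.5 CPM to 4.49, 6.59 and 6.99 CPM (-1.87 ± 0.34, adjusted p = 0.00155). Tsfm, the nucleotide exchange factor of Tufm, had a log2 fold change of -2.92 ± 0.66. Taco1, a translational activator of a cytochrome oxidase subunit, rose from 6.12, 4.86 and 3.22 CPM to 36.6, 18.8 and 26.4 CPM (2.52 ± 0.39, adjusted p = 0.000552).

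Of 17 mitochondrial aminoacyl-tRNA synthetases 4 (23.5%) were lower, close to the background, and 1 (5.88%) was higher (median -0.53). Sars2 fell from 5.22, 5.47 and 3.05 CPM to 0, 0.51 and 0 CPM (adjusted p = 0.0159), a call lost without replicate 4 or 5 (0.0913 and 0.0884). Nars2 was at 13.9, 9.53 and 10.7 CPM without Dox and 19.3, 16.3 and 29.7 CPM with Dox (0.93 ± 0.34, adjusted p = 0.0453). That call was lost without any of replicates 4, 5, 6, 10 and 12 (0.0823, 0.209, 0.173, 0.0635 and 0.134), and with RLE scaling (0.0519), no low-count filter (0.149), limma-voom (0.0703) and the length trend removed (0.0750).

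Of 12 genes that copy or transcribe mitochondrial DNA or stabilise its RNA, 4 (33.3%) were lower and 1 (8.33%) was higher (median -0.98), beside 22.1% and 23.6% of all tested genes. Ssbp1, which coats single-stranded mitochondrial DNA, fell from 144.4, 176.3 and 208.5 CPM to 20.3, 24.1 and 17.1 CPM (-3.10 ± 0.22, adjusted p = 5.50e-06). Polg, the catalytic subunit of the DNA polymerase, was at 12.4, 16.4 and 10 CPM without Dox and 27.4, 36.5 and 24.4 CPM with Dox (1.19 ± 0.30, adjusted p = 0.00963), a call lost without replicate 4 or 6 (0.0579 and 0.0636).

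Of 9 nuclear regulators of mitochondrial genes 2 (22.2%) passed the test, both lower (list median -0.37), beside 45.6% of all tested genes that passed, 22.1% as lower and 23.6% as higher. Myc was at 138.2, 119.6 and 110.4 CPM without Dox and 8.44, 9.16 and 7.12 CPM with Dox (-3.89 ± 0.21, adjusted p = 1.87e-06), and Yy1 fell from 185.8, 167.0 and 183.6 CPM to 89.0, 98.3 and 105.3 CPM (-0.87 ± 0.16). Whether either bears on the ribosomal protein genes was not tested.

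**Figure D5:**
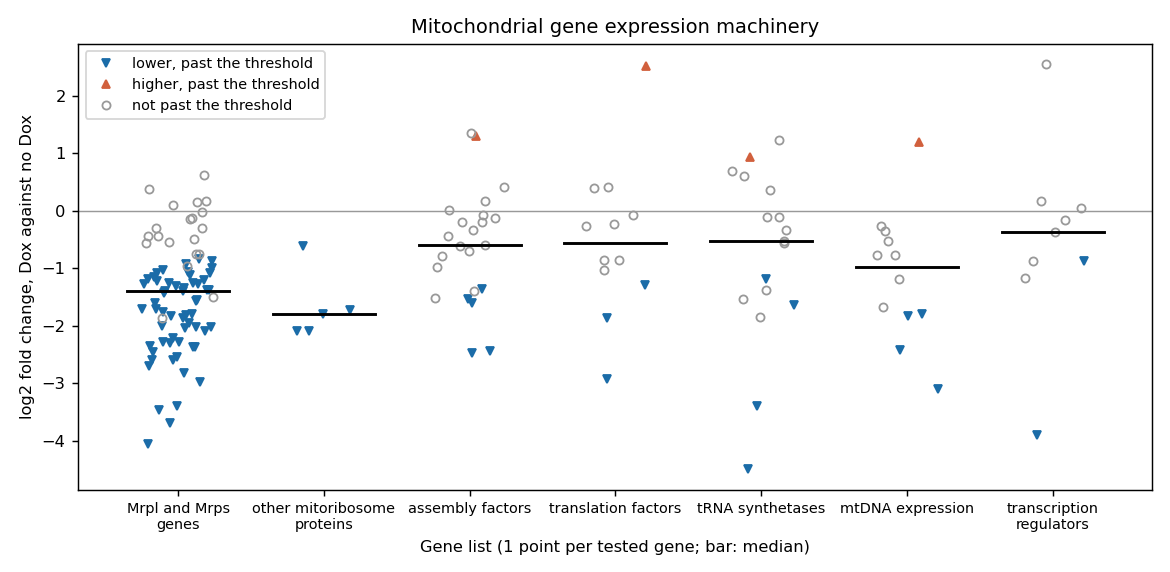
Log2 fold change with Dox of each tested gene (points) in the Mrpl and Mrps genes and 6 lists of mitochondrial gene expression, with bars for the list medians; triangles passed an adjusted p of 0.05 (down lower, up higher) and grey circles did not. The Mrpl and Mrps genes, the other mitoribosome proteins and the regulators hold no upward triangle, whereas assembly factors, translation factors, tRNA synthetases and mtDNA expression each hold 1.

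Beside other large families, the median log2 fold change was nearer to that of the cytosolic ribosomal proteins than to that of the nuclear respiratory chain. Of 80 tested cytosolic ribosomal protein genes 72 were lower and 2 higher (median -1.61). Of 82 tested nuclear respiratory chain genes 75 were lower and 7 did not pass the test (median -2.18). Over all tested genes 22.1% were lower and 23.6% higher. Summed cytosolic ribosomal protein CPM was 36.3, 33.9 and 32.8 times that of the mitochondrial genes in the libraries without Dox and 31.4, 37.2 and 34.9 times in the Dox libraries, which overlapped. Summed respiratory chain CPM was 4.74, 4.64 and 4.56 times that of the mitochondrial ribosomal protein genes in the libraries without Dox and 2.94, 3.31 and 3.0 times in the Dox libraries, with no overlap between groups. These ratios are between sums from the same libraries and carry no test here.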

How the data were processed

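The authors deposited a table of raw read counts per Entrez gene ID, with 1 column per library; per the submitters' processing notes, STAR, featureCounts and GRCm38 were used. Their versions and the annotation, strand setting, treatment of multi-mapped reads and use of molecular identifiers are not given in the sources used here. Per the labels' protocols, libraries were QuantSeq forward 3′ mRNA libraries.

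Symbols were matched by Entrez ID to RefSeq (GRCm38.p6; 39374 of 40808 IDs, 96.5%). Transcript lengths and overlaps came from GENCODE M21. After a low-count filter (filterByExpr, at least 10 counts and a total of 15), genes were scaled with TMM and compared, 3 against 3 and without covariates, with the quasi-likelihood test of edgeR 4.0.16 (R 4.3.3), Benjamini-Hochberg over 14110 genes, threshold 0.05. DESeq2 1.42.0 and limma-voom (limma 3.58.1) were alternatives, besides other scalings, filters and thresholds, a length correction and leaving out libraries. On simulated counts of 13486 genes the test called 61.8% of 186 genes changed by 2 on the log2 scale, 0 with the wrong sign, and 6 of 13300 unchanged genes. Few genes changed there, in both directions and on otherwise equal group means, whereas 45.6% of tested genes passed the test in the data. The simulation therefore could not check the scaling of these libraries.

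Named genes were, per subunit, the 5 lowest and 5 highest fold changes among those past the threshold at or above median level, the 3 most abundant, the one nearest to no change, 9 chosen for their role, and the extremes of each other list plus Myc, Tufm, Dap3 and Gadd45gip1. Genes outside this rule are named as such or as complete short lists. The genes and lists were chosen with earlier results of these data known. Of 153 list entries 14 had no match.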

Additional observations from a re-analysis of the deposited data

How the results depend on the processing

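Over the alternatives other than leaving out a library, 53 to 61 of the genes were lower with Dox and 0 to 1 were higher. No paired analysis was possible because replicates 4, 5 and 6 have no counterpart of the same number among 10, 11 and 12. With library size only, the medians were -1.07 (large) and -1.09 (small), and the median of all genes moved from 0.07 to 0.38. A change of scaling moves all genes by about the same amount. The difference between the median of the 78 genes and that of all genes (-1.46) therefore cannot show which scaling is right. With library size only, 64.3% of called genes were higher, against 51.6% with TMM. Without a low-count filter the large subunit median was -1.54, and with at least 10 counts in every library, which tests 75 of the genes, it was -1.22. At an adjusted p under 0.01, 2200 genes in all were higher, against 3324. With the trend on transcript length removed, 1 gene was higher (Mrpl14) and the small subunit median was -1.17. Leaving out 1 library at a time, 54 to 62 of the genes were lower, 0 to 1 higher, and the medians ran from -1.50 to -1.23 (large) and from -1.59 to -1.37 (small), with the ends at -1.23 and -1.59 both without replicate 11. Over these, 4794 to 7025 genes changed in all. The sign of Mrpl14 (-0.02) turned with upper-quartile factors (0.078), library size only (0.29), at least 10 counts (0.10), the length trend removed (0.51) and without replicate 10 (0.0095; lowest of the leave-one-out values -0.11), and that of Mrps26 with library size only (0.018). Except where an alternative tests fewer genes or samples, the cause was not tested. Depth limits Mrpl24 and Mrps18b, whose Dox libraries held 1 to 21 counts.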

Other observations

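Falls were seen both among the genes with a counterpart in bacteria and among those without one. Of 48 genes with a bacterial homologue 37 were lower (median log2 fold change -1.38), beside 22.1% of all tested genes. Of 30 genes without one 21 were lower (-1.46). This split was made after the values were seen.

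Chromosome 17 held 8 of the 78 genes, of which 2 were lower, beside 22.1% of all tested genes, and 6 did not pass the test. Their median was -0.59, while the median of all 723 tested genes of that chromosome was -0.01. The 6 were Mrpl2, Mrpl14, Mrpl28, Mrps18a, Mrps18b and Mrps34, and this count was made after the values were seen and has no test.

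The last 300 bases of 9 of the 78 genes (Mrpl24, Mrpl53, Mrpl19, Mrpl49, Mrpl10, Mrps18b, Mrps25, Mrps7 and Mrps34) overlap an exon of another gene. Of these 9 genes 5 were lower, beside 53 of the other 69 and 22.1% of all tested genes.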
